A study of Mus musculus with 9 samples.

Results

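The 9 genes named together as markers of small cavity macrophages and dendritic-cell-like myeloid cells, Ear2, Napsa, Plac8, Cd52, Cd226, Cyp4f18, Batf3, Zbtb46 and Matk, were followed through 9 RNA-seq libraries of mouse peritoneal macrophages. They are 9 of the 47729 gene identifiers counted, and each was found once by its symbol. They had been picked with their levels in these libraries known, so their levels and differences are given as description, with no test. The peritoneal cavity holds large macrophages, long-lived and dependent on the factor GATA6, and small ones, which carry more MHC class II, are fed by blood monocytes and share several transcripts with dendritic cells. Classical dendritic cells take up antigen and show it to T cells. BATF3 is needed for their cross-presenting branch in the mouse, and ZBTB46 marks their lineage.

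All mice were Cx3cr1CreERT2-IRES-EYFP/+ Rosa26-stopfl-tdTomato/+, in which a Cre that tamoxifen switches on is made where Cx3cr1 is active and a red reporter follows, and all were given IL-4 (5 µg) complexed with an antibody to it (25 µg) into the peritoneum on alternate days from 4 days before harvest. Tissue-converted macrophages (3 libraries) came from mice that had 2 ml of thioglycollate, a sterile irritant, and then ate tamoxifen for 10 weeks. Tissue-resident macrophages (3 libraries) are listed with no treatment beyond IL-4, and monocyte-derived macrophages (3 libraries) were taken 4 days after 2 ml of thioglycollate. All cells were FACS-sorted; the sources used here give neither the gates nor the ages of the mice. Only the converted mice ate tamoxifen and only the monocyte-derived ones had a recent irritant, so neither can be told apart from cell origin. Sex-linked transcripts divided the groups in the same way: Xist had 0 reads in converted, 2 in resident and 3247 in monocyte-derived libraries, while Ddx3y had 5190, 5218 and 0 reads, so sex cannot be told apart from the difference to monocyte-derived cells either.

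The libraries held 15220884 to 20496258 reads in genes. Levels are in CPM, the reads of a gene relative to all reads in genes on library sizes scaled by TMM, and comparisons of levels between genes use CPM per kilobase of exon. The 8 macrophage identity genes summed to 6334 to 7898 CPM in converted, 6681 to 6999 in resident and 3833 to 6514 in monocyte-derived libraries. Genes of large cavity macrophages summed to 7520 to 8639, 7589 to 8479 and 480 to 781 CPM. The 7 eosinophil genes summed to 4744 to 5081 CPM in converted, 4437 to 5353 in resident and 86.9 to 148.5 in monocyte-derived libraries. Nearly all of this was Alox15 (4876, 4948 and 109 CPM on average), a lipoxygenase gene that peritoneal macrophages express too, while the granule genes Prg2 and Epx had no read; the part of eosinophils was not tested. The 20 conventional dendritic cell genes summed to 415 to 464 CPM in converted, 609 to 688.5 in resident and 446 to 566 in monocyte-derived libraries. Id2 alone averaged 325, 347 and 128 CPM of this. Xcr1 and Clec9a, which define cross-presenting dendritic cells and are in that list, averaged at most 0.690 CPM in any group.

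In converted libraries 8 of the 9 genes lay below every monocyte-derived library and the ninth, Plac8, overlapped. Of all 13223 genes tested, 27.7% lay wholly lower and 28.6% wholly higher in that comparison, 56.3% in all. In resident against monocyte-derived libraries 7 genes lay wholly lower, Plac8 wholly higher and Zbtb46 overlapped, beside 28.9% of all genes wholly lower and 30.6% wholly higher, 59.5% in all. Between converted and resident libraries 7 genes lay wholly lower in converted ones and Batf3 and Matk overlapped, beside 17.7% of all genes wholly lower and 19.6% wholly higher, 37.3% in all. The median log2 difference of the 9 genes was -3.25 for converted against monocyte-derived, -2.16 for resident against monocyte-derived and -1.69 for converted against resident libraries, where all tested genes had medians of -0.01, 0.00 and 0.01. Because the genes were picked on these contrasts, nothing is read from those counts. The first 2 comparisons share the monocyte-derived libraries. Fewer cells of a kind and less RNA per cell cannot be told apart in these bulk libraries.

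**Figure D1:**
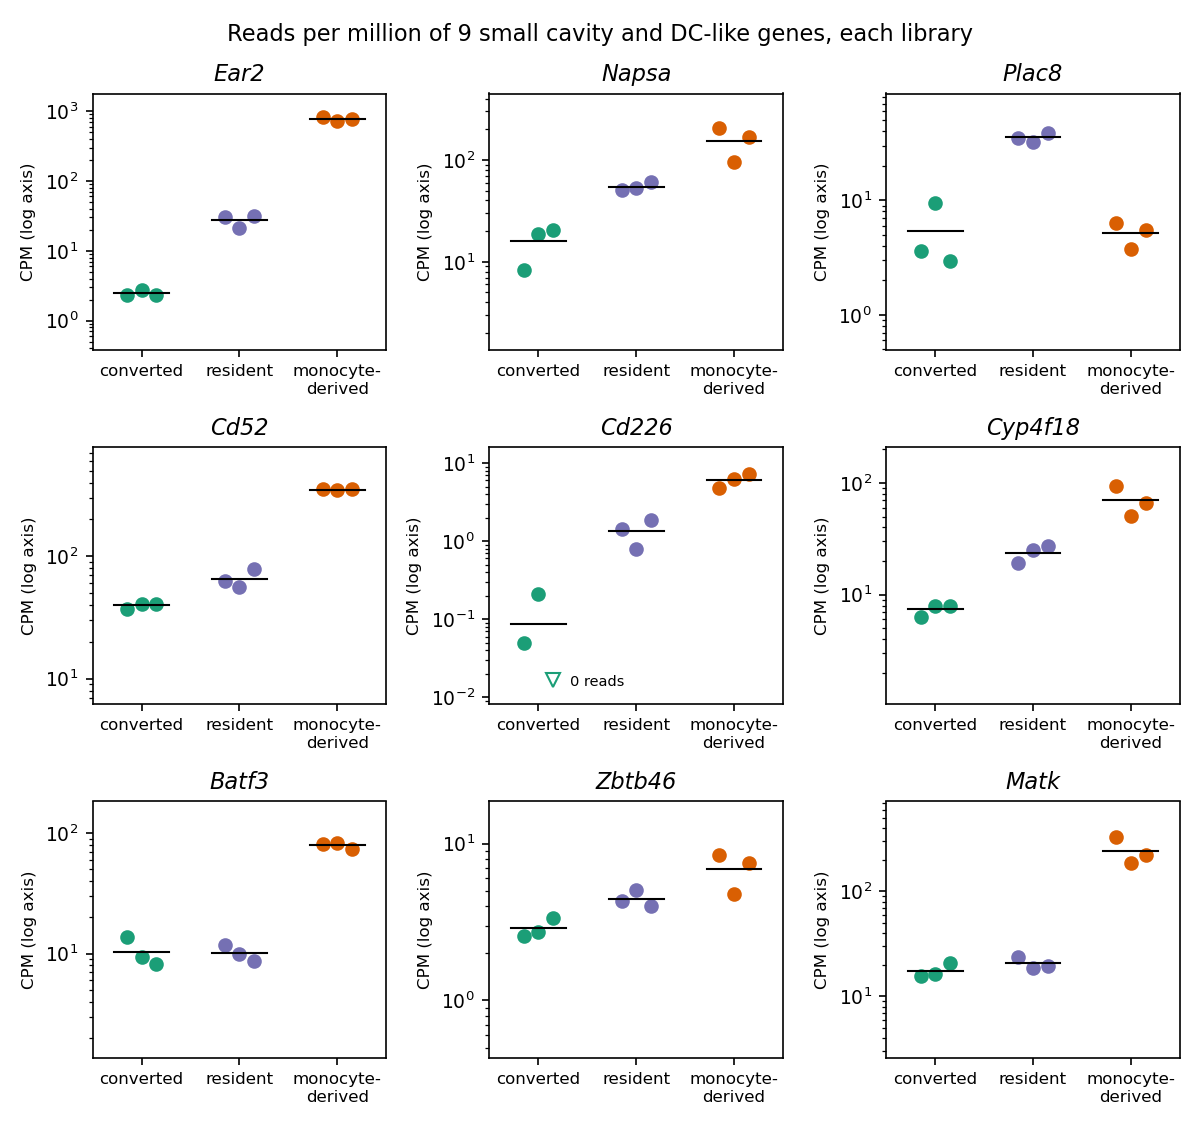
Level of each of the 9 genes in CPM (log axis, scaled per panel) in each converted, resident and monocyte-derived library (points, 3 a group) with group means (bars); an open triangle marks a library with 0 reads. Ear2 spans 2.48 CPM in converted to 772 CPM in monocyte-derived libraries on average, Plac8 alone is highest in resident libraries, and Batf3 and Matk are alike in converted and resident libraries.

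**Figure D2:**
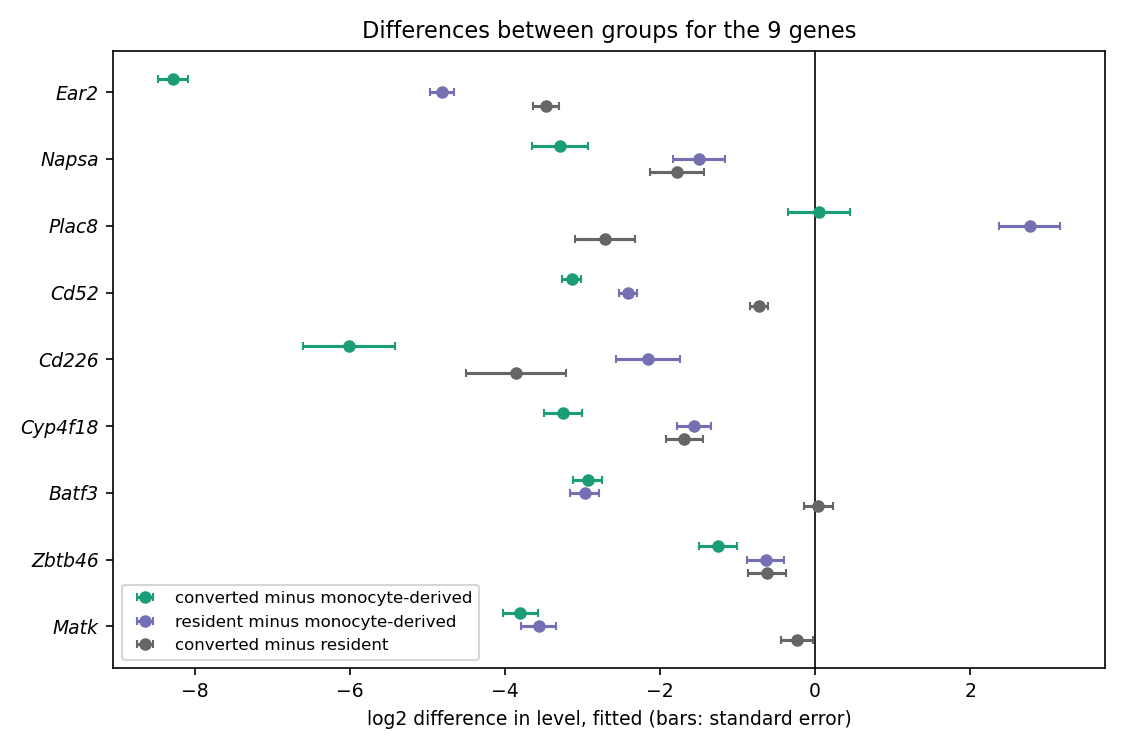
Fitted log2 difference in level with its standard error for each gene and comparison. Points left of 0 are lower in the group named first; Ear2 is farthest left at -8.28, Plac8 lies at 2.77 for resident minus monocyte-derived, and Batf3 and Matk lie near 0 for converted minus resident.

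Among the secreted enzymes, Ear2 (ENSMUSG00000072596, GRCm38 chromosome 14, 44102654 to 44103534, plus strand) showed the widest range. It encodes an RNase of the eosinophil-associated family, a rodent-expanded group of small secreted ribonucleases. Its level was 2.29, 2.78 and 2.36 CPM in the converted libraries, 30.01, 21.2 and 31.2 CPM in the resident libraries and 814, 722 and 781 CPM in the monocyte-derived libraries. The 3 groups did not overlap in any pair, and the libraries of each lay close together. Group means were 2.48 ± 0.27, 27.5 ± 5.45 and 772 ± 46.8 CPM (SD, n = 3 each, converted, resident and monocyte-derived). The converted mean was thus 312-fold below the monocyte-derived one, and the fitted log2 differences were -8.28 ± 0.19 (SE) for converted against monocyte-derived, -4.81 ± 0.16 for resident against monocyte-derived and -3.47 ± 0.17 for converted against resident libraries. The counts behind these levels were 141 reads in converted, 1589 in resident and 39857 in monocyte-derived libraries.

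The 13 other genes and pseudogenes with an Ear symbol, all on chromosome 14, had 8 reads together in converted, 15 in resident and 96 in monocyte-derived libraries. Ear2 had 41587 reads over all 9. Related RNase genes under other symbols, such as Rnase2a and Rnase2b, are not in that count and are given further on. Of the 50-base windows along the Ear2 transcript, 41.5% also occur in another gene, most often in Ear10 (26.0%), and 57.4% of those of Ear1 do. The sources used here do not say how reads with several alignments were counted, so reads of the shared stretches are uncertain in all of these genes. The start regions of Ear2 and Ear1 are shown because they are nearly one sequence while their counts are far apart: from 250 bases before to 50 bases after the start site, RefSeq on GRCm38.p6 gives 298 alignable columns of which 294 are identical (98.7%), with 3 substituted letters and 1 gap. Capitals mark the letters that differ, unaligned ends included; Ear2 is chr14:44102404-44102703 on the plus strand and Ear1 is chr14:43819590-43819889 on the minus strand.
Ear2: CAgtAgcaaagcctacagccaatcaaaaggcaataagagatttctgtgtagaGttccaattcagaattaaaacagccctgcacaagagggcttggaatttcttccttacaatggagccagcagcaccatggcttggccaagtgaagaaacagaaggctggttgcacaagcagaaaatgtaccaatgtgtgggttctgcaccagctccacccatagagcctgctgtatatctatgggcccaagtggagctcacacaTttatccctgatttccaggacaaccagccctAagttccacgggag
Ear1: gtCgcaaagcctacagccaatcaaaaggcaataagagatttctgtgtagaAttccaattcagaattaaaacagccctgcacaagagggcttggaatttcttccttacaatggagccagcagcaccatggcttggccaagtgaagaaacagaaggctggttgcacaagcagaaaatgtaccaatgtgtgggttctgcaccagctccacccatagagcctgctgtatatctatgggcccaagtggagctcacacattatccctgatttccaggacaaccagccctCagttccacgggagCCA
Ear1 itself had 4 reads in converted, 6 in resident and 14 in monocyte-derived libraries. The same window of Ear10 was 92.6% identical to that of Ear2 (274 of 296 columns), and Ear10 had 0, 1 and 7 reads. The RefSeq start of Ear1 lies 55878 bases inside the GENCODE gene, so the start its few reads come from was not tested.

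Napsa (chromosome 7, 44572380 to 44586862, plus strand) encodes napsin A, an aspartic protease of the pepsin family found in lysosome-related compartments. Its level was 8.22, 18.7 and 20.7 CPM in converted libraries, 51.2, 52.5 and 60.3 CPM in resident libraries and 204, 94.4 and 167 CPM in monocyte-derived libraries. Napsa thus averaged 15.9 ± 6.73 CPM in converted, 54.6 ± 4.92 CPM in resident and 155 ± 55.7 CPM in monocyte-derived libraries (SD, n = 3 each). The groups were fully separated, with converted library 1 and monocyte-derived library 2 low within their groups. Fitted log2 differences were -3.29 ± 0.36 (SE) for converted against monocyte-derived, -1.50 ± 0.34 for resident against monocyte-derived and -1.79 ± 0.35 for converted against resident libraries. A lowly counted antisense gene overlaps Napsa (Gm15396, at most 0.158 CPM on average in each group).

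Cyp4f18 (chromosome 8, 71988482 to 72009626, minus strand) encodes the cytochrome P450 that hydroxylates leukotriene B4 in mouse myeloid cells, a step that inactivates this chemoattractant. Its level was 6.32, 7.98 and 7.93 CPM in converted libraries, 19.2, 25.1 and 27.1 CPM in resident libraries and 94.6, 50.8 and 66.1 CPM in monocyte-derived libraries. Cyp4f18 thus averaged 7.41 ± 0.94 CPM in converted, 23.8 ± 4.10 CPM in resident and 70.5 ± 22.2 CPM in monocyte-derived libraries (SD, n = 3 each). It was ordered like Napsa, with no overlap between any pair of groups: the log2 differences were -3.25 ± 0.24 (SE), -1.57 ± 0.22 and -1.69 ± 0.24 in the same order of comparisons. Over the 9 libraries the profiles of Napsa and Cyp4f18 were the most alike of all pairs of the 9 genes, with a root mean square difference of 0.30 on the centred log2 CPM scale. Zfp961 overlaps Cyp4f18 on the opposite strand and had 13.4, 12.1 and 10.1 CPM on average in converted, resident and monocyte-derived libraries; the sources used here do not say whether counting used strand, and its part in the Cyp4f18 level was not tested.

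Of the surface and small membrane-associated proteins, Cd52 (chromosome 4, 134082448 to 134095082, minus strand) encodes a short glycosylphosphatidylinositol-anchored peptide that is abundant on lymphocytes and monocytes. Its level was 37.4, 41.1 and 40.9 CPM in converted libraries, 62.9, 55.8 and 78.4 CPM in resident libraries and 351.6, 349.2 and 351.6 CPM in monocyte-derived libraries. Cd52 thus averaged 39.8 ± 2.04 CPM in converted, 65.7 ± 11.6 CPM in resident and 351 ± 1.38 CPM in monocyte-derived libraries (SD, n = 3 each). All 3 groups were separate, and the monocyte-derived libraries spread by 0.394% of their mean (SD). At 5436 to 6599 reads each, that is closer than the counting of reads alone gives on average. So close an agreement of 3 libraries is not read as a property of the gene. The log2 differences were -3.14 ± 0.12 (SE) for converted against monocyte-derived, -2.42 ± 0.12 for resident against monocyte-derived and -0.72 ± 0.12 for converted against resident libraries. B and T cell sums were also lower in converted than in resident libraries, and the part of lymphocytes in the Cd52 level was not tested.

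Cd226 (chromosome 18, 89176967 to 89272229, plus strand) encodes DNAM-1, an adhesion receptor of NK cells, T cells and some myeloid cells that binds the ligands PVR and Nectin-2. It had 1, 4 and 0 reads in the converted libraries (0.050, 0.210 and 0 CPM), 26, 15 and 38 reads in the resident libraries (1.43, 0.786 and 1.86 CPM) and 91, 109 and 111 reads in the monocyte-derived libraries (4.85, 6.29 and 7.18 CPM). Cd226 thus averaged 0.087 ± 0.110 CPM in converted, 1.36 ± 0.54 CPM in resident and 6.11 ± 1.18 CPM in monocyte-derived libraries (SD, n = 3 each). No pair of groups overlapped, but the converted value rests on 5 reads. The log2 differences were -6.01 ± 0.59 (SE), -2.16 ± 0.41 and -3.86 ± 0.65, and without converted library 2, which held 4 of the 5 reads, the values against monocyte-derived and against resident libraries were -7.52 and -5.37. NK cell genes moved in part with Cd226: the 10-gene NK list summed to 3.49, 6.35 and 4.38 CPM in converted, 40.1, 32.8 and 52.0 CPM in resident and 35.6, 41.7 and 180.2 CPM in monocyte-derived libraries. Monocyte-derived libraries 1 and 2 had NK sums within the resident range and Cd226 levels above every resident library. The part of NK cells in the Cd226 level was not tested.

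Plac8 differed from the other 8 genes in being highest in resident libraries. Plac8 (chromosome 5, 100553725 to 100572245, minus strand) encodes a small cysteine-rich protein found in myeloid and lymphoid cells. Its level was 3.64, 9.55 and 2.98 CPM in converted libraries, 34.8, 32.5 and 39.0 CPM in resident libraries and 6.34, 3.75 and 5.50 CPM in monocyte-derived libraries. Plac8 thus averaged 5.39 ± 3.62 CPM in converted, 35.4 ± 3.27 CPM in resident and 5.20 ± 1.32 CPM in monocyte-derived libraries (SD, n = 3 each). Resident libraries were apart from both other groups, whose values overlapped. The log2 differences were 0.05 ± 0.40 (SE) for converted against monocyte-derived, 2.77 ± 0.39 for resident against monocyte-derived and -2.71 ± 0.39 for converted against resident libraries. Without converted library 2, the highest of its group, the values against monocyte-derived and against resident libraries were -0.64 and -3.41. Plac8 was thus highest in the resident libraries. The 15 small cavity companions were lower for the most part in resident against monocyte-derived libraries. There 10 were called lower, Itgax and H2-Eb1 among them, beside 24.9% of all genes. Another 3 were called higher, beside 25.7% of all genes, namely Cd209a, Retnla and Lyz1 (edgeR adjusted p = 0.00218, 0.0122 and 9.58e-05).

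B cell genes were high where Plac8 was. The 12 B cell genes, none of which was without reads in any group, summed to 49.7, 115 and 60.8 CPM in converted libraries, 705, 768 and 945 CPM in resident libraries and 15.8, 24.1 and 39.1 CPM in monocyte-derived libraries. Within groups the 2 did not always go together. Converted library 2 and resident library 3 were highest of their groups in both. Monocyte-derived library 1 had the highest Plac8 of its group (6.34 CPM) and the lowest B cell sum. Converted library 3 had less Plac8 than converted library 1 (2.98 against 3.64 CPM) and a higher B cell sum. Every converted B cell sum lay above every monocyte-derived one, while Plac8 overlapped between these groups. Among 9292 protein-coding genes, the profile closest to that of Plac8 belonged to Siglecg, an inhibitory lectin receptor of B cells, at 3.26 ± 1.72, 34.0 ± 3.28 and 5.43 ± 2.68 CPM (SD, n = 3 each, converted, resident and monocyte-derived; root mean square difference 0.38). T cell genes also summed higher in resident libraries, at 22.0 to 37.8 CPM, against 3.32 to 8.61 CPM in converted and 4.64 to 20.4 CPM in monocyte-derived libraries. The part of other cells in the Plac8 level was not tested.

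**Figure D3:**
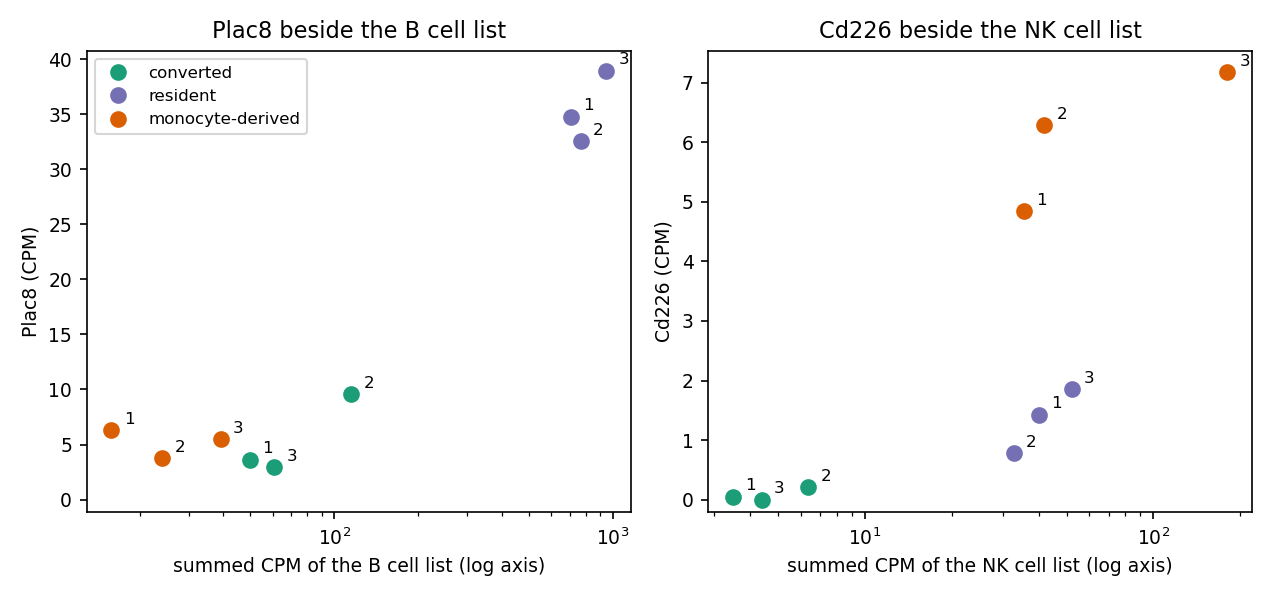
Left, Plac8 level against the summed level of 12 B cell genes; right, Cd226 level against the summed level of 10 NK cell genes, each point 1 library with its number (CPM, horizontal axes logarithmic). Plac8 is 32.5 to 39.0 CPM in the resident libraries, which also hold the highest B cell sums, and Cd226 is highest in monocyte-derived library 3, which holds the highest NK sum.

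The start region of Plac8 is shown because the gene stands apart (RefSeq, GRCm38.p6, chr5:100572156-100572455, minus strand). Capitals mark the letters GAGGAA, a core bound by PU.1-type ETS factors of myeloid and B cells, or its reverse complement TTCCTC.
Plac8: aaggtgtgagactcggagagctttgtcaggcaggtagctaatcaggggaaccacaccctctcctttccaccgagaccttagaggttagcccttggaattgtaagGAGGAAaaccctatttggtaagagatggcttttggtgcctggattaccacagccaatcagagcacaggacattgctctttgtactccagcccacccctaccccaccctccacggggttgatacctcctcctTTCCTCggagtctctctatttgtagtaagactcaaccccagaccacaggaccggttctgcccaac
These letters occurred at 146 to 141 and at 15 to 10 bases before the start site. GAGGAA on either strand is common, occurring in 28.3% of the 32851 windows of this kind, and the match describes letters only.

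Of the transcription factors, Batf3 (chromosome 1, 191097847 to 191108945, plus strand) had 13.6, 9.29 and 8.21 CPM in converted libraries, 11.8, 9.90 and 8.75 CPM in resident libraries and 81.0, 83.1 and 74.3 CPM in monocyte-derived libraries. Batf3 thus averaged 10.4 ± 2.88 CPM in converted, 10.1 ± 1.52 CPM in resident and 79.5 ± 4.56 CPM in monocyte-derived libraries (SD, n = 3 each). BATF3 is a basic leucine zipper protein that pairs with JUN proteins and IRF8. Converted and resident libraries overlapped, both lay below all monocyte-derived ones, and the log2 differences were -2.93 ± 0.19 (SE) for converted against monocyte-derived, -2.97 ± 0.19 for resident against monocyte-derived and 0.04 ± 0.19 for converted against resident libraries.

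Zbtb46 (chromosome 2, 181387762 to 181459426, minus strand), a BTB zinc finger factor, had 2.59, 2.73 and 3.37 CPM in converted libraries, 4.29, 5.03 and 4.01 CPM in resident libraries and 8.42, 4.74 and 7.57 CPM in monocyte-derived libraries. Zbtb46 thus averaged 2.90 ± 0.418 CPM in converted, 4.44 ± 0.53 CPM in resident and 6.91 ± 1.93 CPM in monocyte-derived libraries (SD, n = 3 each). Resident library 2 and monocyte-derived library 2 overlapped, and the converted libraries were below all others. Its log2 differences were the smallest of the 9 against monocyte-derived cells apart from that of Plac8 in converted ones, at -1.25 ± 0.25 (SE) for converted and -0.64 ± 0.24 for resident libraries, and -0.62 ± 0.25 for converted against resident libraries. Per kilobase of exon, Zbtb46 was also among the lowest: 0.341, 0.522 and 0.812 CPM per kb on average in converted, resident and monocyte-derived libraries, beside 6.50, 6.35 and 49.8 for Batf3.

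The RefSeq start regions of both factors are given with the searched motifs that were found in them. Batf3 is chr1:191098164-191098463 on the plus strand and Zbtb46 is chr2:181424339-181424638 on the minus strand (GRCm38.p6). Capitals mark CACGTG (an E-box) and GAGGAA in Batf3, and TGACTCA, a form of the BATF and AP-1 element TGANTCA, in Zbtb46.
Batf3: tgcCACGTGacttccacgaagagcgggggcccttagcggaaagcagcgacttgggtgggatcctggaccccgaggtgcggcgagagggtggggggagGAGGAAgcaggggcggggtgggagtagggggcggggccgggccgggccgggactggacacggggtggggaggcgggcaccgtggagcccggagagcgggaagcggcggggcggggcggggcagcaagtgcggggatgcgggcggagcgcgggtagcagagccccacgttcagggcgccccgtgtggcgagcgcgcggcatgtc
Zbtb46: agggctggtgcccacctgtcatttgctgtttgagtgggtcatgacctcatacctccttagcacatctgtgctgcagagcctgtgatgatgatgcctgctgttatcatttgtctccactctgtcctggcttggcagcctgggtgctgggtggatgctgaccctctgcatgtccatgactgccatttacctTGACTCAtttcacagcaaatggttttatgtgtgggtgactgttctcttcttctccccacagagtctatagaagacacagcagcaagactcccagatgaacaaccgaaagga
TGACTCA stood 61 to 55 bases before that start of Zbtb46, which lies 35038 bases inside the GENCODE gene. On both strands, TGANTCA occurred in 7.81% and CACGTG in 7.15% of all windows, and the matches describe letters only. The STAT6 element, TTC and GAA with 4 letters between them, occurred in 6.95% and the PU.1 and IRF element, GGAA and GAAA with 2 letters between them, in 2.72% of windows. Windows were at hand for 6 of the 9 genes, Batf3, Zbtb46, Plac8, Cyp4f18, Matk and Ear2. GAGGAA was also found in those of Cyp4f18 and Matk, the STAT6 element in a second window of Plac8, the PU.1 and IRF element in no window of the 6, and Ear2 held none of the 5 motifs.

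Matk (chromosome 10, 81252935 to 81263365, plus strand) encodes the kinase CHK, a relative of CSK that restrains Src family kinases. Its level was 15.6, 16.4 and 20.7 CPM in converted libraries, 23.7, 18.7 and 19.6 CPM in resident libraries and 327, 187 and 221 CPM in monocyte-derived libraries. Matk thus averaged 17.6 ± 2.72 CPM in converted, 20.7 ± 2.65 CPM in resident and 245 ± 73.3 CPM in monocyte-derived libraries (SD, n = 3 each). Converted and resident libraries overlapped, and every one lay below all monocyte-derived libraries. The log2 differences were -3.80 ± 0.22 (SE) for converted against monocyte-derived, -3.57 ± 0.22 for resident against monocyte-derived and -0.23 ± 0.21 for converted against resident libraries.

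Per kilobase of exon the order of the genes differed between groups. In converted libraries Cd52 led at 33.5 ± 1.72 CPM per kb, followed by Batf3 (6.50 ± 1.80), Napsa (5.98 ± 2.53), Cyp4f18 (3.99 ± 0.51), Matk (3.83 ± 0.59), Ear2 (3.45 ± 0.37) and Plac8 (3.39 ± 2.27), neighbours whose SDs span the gaps between them. Zbtb46 (0.341) and Cd226 (0.018) came last. In resident libraries the order was Cd52 (55.4 ± 9.77), Ear2 (38.2 ± 7.58), Plac8 (22.3 ± 2.05), Napsa (20.6 ± 1.85), Cyp4f18 (12.8 ± 2.21), Batf3 (6.35 ± 0.95), Matk (4.50 ± 0.58), Zbtb46 (0.522) and Cd226 (0.278); Plac8 and Napsa differed by less than their SDs. In monocyte-derived libraries Ear2 led at 1074 ± 65.1 CPM per kb and Cd52 followed at 295.6 ± 1.16, while Napsa (58.3 ± 20.9), Matk (53.3 ± 16.0), Batf3 (49.8 ± 2.86) and Cyp4f18 (38.0 ± 11.99) lay within 1 SD of a neighbour. Plac8 (3.27), Cd226 (1.25) and Zbtb46 (0.812) were lowest there (SD, n = 3 in each group).

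The monocyte-derived libraries differed among themselves in some of the 9 genes and not in others. Napsa, Cyp4f18, Matk, Zbtb46 and Plac8 were highest in library 1 and lowest in library 2, by 2.16, 1.86, 1.75, 1.78 and 1.69 times. Cd226 was highest in library 3 and lowest in library 1, by 1.48 times. Ear2, Cd52 and Batf3 spread by 1.13, 1.01 and 1.12 times over the same libraries. Outside the 9, the chemokine receptor gene Ccr2 (1343, 463 and 661 CPM in libraries 1, 2 and 3) and the dendritic growth factor receptor gene Flt3 (11.1, 2.89 and 10.7 CPM) were likewise lowest in library 2. The lysosomal protease gene Ctsd ran the other way, at 1972, 6382 and 4248 CPM, and so did the macrophage identity sum, at 3833, 6514 and 5371 CPM. Ccr2 and Flt3 do not stand for their lists. Itgax (177, 233 and 247 CPM) and Cd83 (51.7, 123 and 124 CPM), from the same lists, were lowest in library 1. The conventional dendritic cell sum was 448, 446 and 566 CPM. Neutrophil genes summed to 103, 58.5 and 102 CPM in these libraries, against 11.2 to 20.4 CPM in converted and 17.3 to 18.4 CPM in resident libraries. The part of cell mixture in the spread was not tested.

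**Figure D4:**
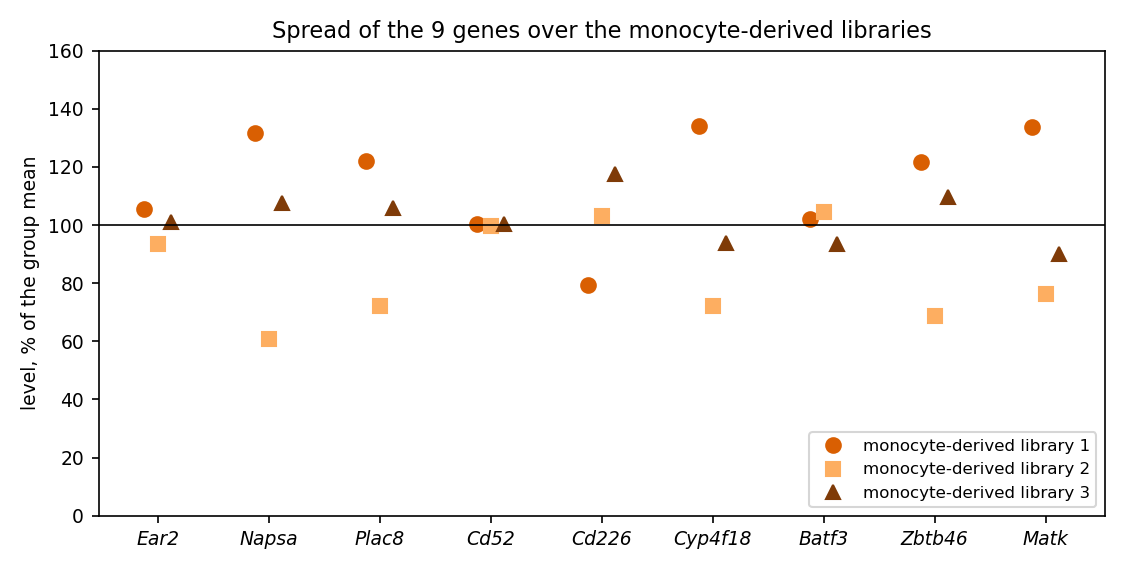
Level of each of the 9 genes in the 3 monocyte-derived libraries as a percentage of the group mean (line at 100%), 1 symbol per library. Cd52, Ear2 and Batf3 stay close to the line, while Napsa, Cyp4f18, Matk, Zbtb46 and Plac8 are highest in library 1 and lowest in library 2, and Cd226 is highest in library 3.

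Genes of related function were taken as 12 lists of companions (137 genes, 115 tested), none of which holds any of the 9. By edgeR's quasi-likelihood test with Benjamini-Hochberg adjustment, 23 companions were higher and 59 lower in converted than in monocyte-derived libraries, where 25.8% and 24.9% of all genes were called higher and lower. In resident against monocyte-derived libraries 34 were higher and 51 lower (25.7% and 24.9% of all genes), and in converted against resident libraries 0 were higher and 27 lower (1.82% and 4.26%). Their median log2 differences were -0.72, -0.34 and -0.32, beside -0.01, 0.00 and 0.01 for all genes tested. The lists had been chosen with earlier results of these data known. The counts and medians of the lists, here and below, are therefore given as description only. The number called between converted and resident libraries, where 6.07% of all genes were called, was 18 to 35 with single libraries left out. The labels do not tie libraries to single mice, so every p-value here reflects the spread from library to library, part of which may be technical.

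**Figure D5:**
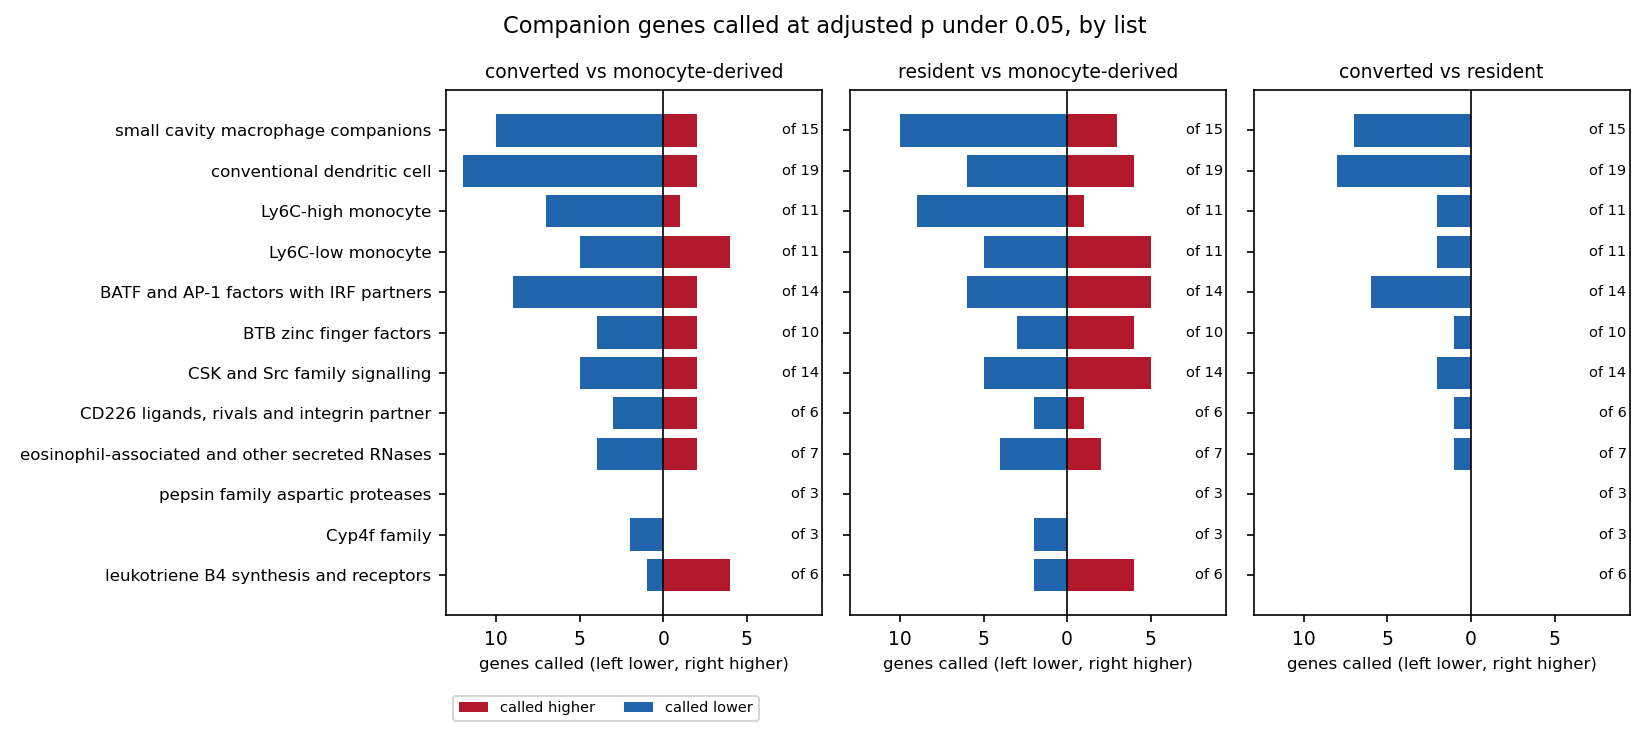
Number of companion genes called higher (right, red) and lower (left, blue) at an adjusted p under 0.05 in each list and comparison, with the number tested at the right of each panel. Most calls against monocyte-derived libraries in the small cavity, dendritic cell and Ly6C-high lists are lower, and no companion was called higher in converted than in resident libraries.

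Known companions of small cavity macrophages were lower for the most part: of 15 tested, 2 were higher and 10 lower in converted, and 3 higher and 10 lower in resident than in monocyte-derived libraries. In each of these comparisons 24.9% of all genes were called lower. Itgax, the integrin CD11c, fell to 0.236 ± 0.201 CPM in converted and 1.87 ± 0.35 CPM in resident libraries, against 219 ± 37.0 CPM in monocyte-derived libraries (SD, n = 3 each; log2 -9.86 ± 0.32 and -6.86 ± 0.25 SE; edgeR adjusted p = 3.23e-08 and 6.31e-08). H2-Eb1, an MHC class II chain, fell to 106 ± 5.26 and 294 ± 40.2 CPM, against 1819 ± 312 CPM (log2 -4.10 ± 0.16 and -2.63 ± 0.14; edgeR adjusted p = 5.99e-08 and 5.63e-07), and it was also lower in converted than in resident libraries (log2 -1.47 ± 0.14, edgeR adjusted p = 0.000919). Lyz1, a lysozyme gene, went the other way at 43.5 ± 19.8 and 32.9 ± 0.97 CPM, against 1.11 ± 1.20 CPM (log2 5.28 ± 0.57 and 4.88 ± 0.57; edgeR adjusted p = 5.87e-05 and 9.58e-05). Between converted and resident libraries 0 were higher and 7 lower, beside 1.82% and 4.26% of all genes. Without converted library 3 or without resident library 3, 4 were lower. B, T and NK cell sums averaged 75.1, 5.67 and 4.74 CPM in converted and 806, 29.3 and 41.6 CPM in resident libraries. Mast cell and plasmacytoid dendritic cell sums were lower in converted libraries too, neutrophil and eosinophil sums overlapped and platelet sums were higher. The part of such cells was not tested. The higher count of 2 in converted against monocyte-derived libraries became 1 without converted library 3 or any resident library.

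Of the conventional dendritic cell list 19 genes were tested. In converted against monocyte-derived libraries 2 were higher and 12 lower, beside 25.8% and 24.9% of all genes. In resident against monocyte-derived libraries 4 were higher and 6 lower, beside 25.7% and 24.9% of all genes. In each of these comparisons 50.7% of all genes were called. Flt3, the receptor that drives dendritic cell growth, fell to 0.257 ± 0.174 CPM in converted and 0.532 ± 0.133 CPM in resident libraries, against 8.23 ± 4.63 CPM in monocyte-derived libraries (SD, n = 3 each; log2 -4.94 ± 0.64 and -3.93 ± 0.58 SE; edgeR adjusted p = 0.000148 and 0.000348). Id2, a factor that classical dendritic cells need, was higher at 325 ± 37.6 and 347 ± 34.0 CPM, against 128 ± 17.4 CPM (log2 1.34 ± 0.13 and 1.44 ± 0.13; edgeR adjusted p = 1.66e-05 and 1.09e-05). Cd83, a maturation marker of dendritic cells and B cells, was 11.4 ± 5.30 CPM in converted libraries, against 114 ± 17.0 CPM in resident and 99.6 ± 41.5 CPM in monocyte-derived libraries (log2 -3.32 ± 0.40, edgeR adjusted p = 0.00271 for converted against resident). In that comparison 8 of the list were lower and 0 higher, beside 4.26% and 1.82% of all genes. Without converted library 1, converted library 3, resident library 1 or resident library 3 the count was 4, and without resident library 2 it was 5. The B, T and NK cell sums moved with this comparison too, and their part in it was not tested. Without converted library 1, only 1 of the list was higher in converted than in monocyte-derived libraries.

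Of 11 tested genes of Ly6C-high monocytes, 1 was higher and 7 lower in converted, and 1 higher and 9 lower in resident than in monocyte-derived libraries. Each of these comparisons called 50.7% of all genes. Ccr2, which brings monocytes out of the bone marrow, fell to 2.32 ± 0.14 and 10.5 ± 1.05 CPM, against 822.5 ± 462 CPM in monocyte-derived libraries (SD, n = 3 each; log2 -8.47 ± 0.45 and -6.28 ± 0.40 SE; edgeR adjusted p = 6.36e-07 and 2.07e-06). F13a1, the coagulation factor XIII subunit made by monocytes, was 1.08 ± 0.46 and 5.21 ± 2.13 CPM, against 118 ± 24.6 CPM (log2 -6.75 ± 0.37 and -4.49 ± 0.31; edgeR adjusted p = 8.09e-07 and 3.76e-06). The higher count of 1 in converted libraries was 2 without converted library 1. Genes of Ly6C-low monocytes were divided, with 4 higher and 5 lower of 11 in converted and 5 higher and 5 lower in resident against monocyte-derived libraries. That last lower count was 2 without resident library 1 and 3 without resident library 3, monocyte-derived library 2 or monocyte-derived library 3. Hes1, a target of Notch, rose to 46.8 ± 7.92 and 50.1 ± 1.20 CPM, against 1.85 ± 0.30 CPM (log2 4.66 ± 0.17 and 4.76 ± 0.17; edgeR adjusted p = 4.94e-08 and 4.46e-08).

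Partners and relatives of Batf3 formed a list of 14 tested genes. Against monocyte-derived libraries 9 were lower and 2 higher in converted, and 6 lower and 5 higher in resident libraries, where each comparison called 50.7% of all genes. Irf8, the partner of BATF3 in dendritic cells, fell in the same order as Napsa: 7.27 ± 0.48 CPM in converted and 34.1 ± 6.91 CPM in resident libraries, against 82.2 ± 15.1 CPM in monocyte-derived libraries (SD, n = 3 each; log2 -3.50 ± 0.19 and -1.27 ± 0.17 SE; edgeR adjusted p = 4.09e-07 and 0.000163). It was also lower in converted than in resident libraries (log2 -2.23 ± 0.18, edgeR adjusted p = 0.000602), where B cell sums moved too and their part was not tested. Irf4 was 73.8 ± 10.5, 66.6 ± 2.01 and 76.9 ± 12.5 CPM and was not called in any comparison. Among the AP-1 genes, Fosl2 fell to 34.8 ± 6.72 and 36.9 ± 4.48 CPM, against 133 ± 9.39 CPM (log2 -1.94 ± 0.15 and -1.85 ± 0.15; edgeR adjusted p = 4.26e-06 and 5.88e-06). Batf, the closest relative of Batf3, was 13.5 ± 2.11, 20.1 ± 3.56 and 21.4 ± 2.81 CPM and was called lower in converted than in monocyte-derived libraries (log2 -0.66 ± 0.17, edgeR adjusted p = 0.0097). Its edgeR adjusted p was 0.685 for resident against monocyte-derived and 0.0898 for converted against resident libraries.

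Fos and Fosb, early-response AP-1 genes, stood out in resident libraries. Fos was 284 ± 105 CPM in converted and 910.1 ± 20.02 CPM in resident libraries, against 166 ± 40.8 CPM in monocyte-derived libraries (SD, n = 3 each; log2 2.46 ± 0.28 SE for resident against monocyte-derived, edgeR adjusted p = 7.67e-05, and -1.68 ± 0.27 for converted against resident, edgeR adjusted p = 0.00824). Fosb was 6.29 ± 2.79, 48.4 ± 0.48 and 3.19 ± 1.06 CPM (log2 3.93 ± 0.35 and -2.94 ± 0.32; edgeR adjusted p = 1.46e-05 and 0.00168). These were the 2 genes of the list called higher in converted than in monocyte-derived libraries, at adjusted p = 0.034 and 0.0381, and their libraries overlapped. That count was 0 without monocyte-derived library 1 or 2 or converted library 1 or 3, and 1 without resident library 2 or 3. Fosb lost its call without any 1 of the resident libraries (adjusted p = 0.0547 to 0.055). The highest adjusted p were 0.129 for Fos without converted library 1 and 0.128 for Fosb without converted library 3.

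Among the 10 tested relatives of Zbtb46 in the BTB zinc finger family, 2 were higher and 4 lower in converted, and 4 higher and 3 lower in resident than in monocyte-derived libraries. Calls among all genes stood at 50.7% in each of these comparisons and 6.07% between converted and resident libraries. Bcl6, a repressor in germinal centre B cells and in dendritic cells, fell to 7.59 ± 2.34 and 10.1 ± 1.39 CPM, against 23.5 ± 5.79 CPM (SD, n = 3 each; log2 -1.63 ± 0.25 and -1.21 ± 0.24 SE; edgeR adjusted p = 0.000383 and 0.00217). Zbtb32, which restrains memory B cell responses, was like Plac8 highest in resident libraries: it was 1.23 ± 0.62 CPM in converted and 12.5 ± 1.92 CPM in resident libraries, against 2.94 ± 1.02 CPM in monocyte-derived libraries (log2 2.09 ± 0.33 for resident against monocyte-derived, edgeR adjusted p = 0.000499, and -3.33 ± 0.36 for converted against resident, edgeR adjusted p = 0.00127). Unlike Plac8 it was also called lower in converted than in monocyte-derived libraries (log2 -1.24 ± 0.37, edgeR adjusted p = 0.0176), a call lost without converted library 1 (0.067), converted library 3 (0.0648) or monocyte-derived library 3 (0.0596). It was the 1 gene of the list lower in converted than in resident libraries. B, T and NK cell sums moved with it, and their part was not tested. The count of 2 higher in converted against monocyte-derived libraries was 1 without converted library 3.

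Around Matk, 14 tested genes of CSK and Src family signalling gave 2 higher and 5 lower in converted and 5 higher and 5 lower in resident than in monocyte-derived libraries. The share called among all genes was 50.7% in each of these comparisons and 6.07% between converted and resident libraries. Nothing about the list as a whole is read from its counts. Csk itself was 89.5 ± 5.51 and 106 ± 2.78 CPM, against 156 ± 6.41 CPM (SD, n = 3 each; log2 -0.80 ± 0.07 and -0.55 ± 0.07 SE; edgeR adjusted p = 1.61e-05 and 0.000175), a smaller difference than that of Matk. Fyn, a Src family kinase, was 70.7 ± 4.04 and 63.0 ± 2.66 CPM, against 220.2 ± 12.03 CPM (log2 -1.64 ± 0.08 and -1.81 ± 0.08; edgeR adjusted p = 2.12e-07 and 1.51e-07). Blk and Lck, the kinases of B and T cells, were the 2 that were lower in converted than in resident libraries (log2 -3.19 ± 0.41 and -3.41 ± 0.55; edgeR adjusted p = 0.00305 and 0.00774), and B and T cell sums moved with them. The higher count of 2 was 1 without converted library 2 or 3, any resident library or monocyte-derived library 2, that of 5 was 3 without any 1 resident library, and the lower count of 2 was 4 without monocyte-derived library 1.

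For CD226, 6 ligands, rivals and partners were tested, with 2 higher and 3 lower in converted and 1 higher and 2 lower in resident than in monocyte-derived libraries. All genes were called at 50.7% in each of these comparisons and at 6.07% between converted and resident libraries. Between converted and resident libraries 0 were higher and 1 lower, Itgal, the chain of the integrin LFA-1 that CD226 associates with. Both ligand genes were called, in opposite directions. Nectin2 rose to 21.9 ± 2.25 CPM in converted and 25.2 ± 0.58 CPM in resident libraries, against 7.81 ± 2.37 CPM in monocyte-derived libraries (SD, n = 3 each; log2 1.49 ± 0.19 and 1.69 ± 0.19 SE; edgeR adjusted p = 0.000119 and 5.31e-05). Pvr fell to 18.4 ± 0.27 and 19.5 ± 2.87 CPM, against 27.9 ± 1.88 CPM (log2 -0.60 ± 0.12 and -0.52 ± 0.12; edgeR adjusted p = 0.00228 and 0.00528). The call of Itgal was lost without resident library 1 (adjusted p = 0.06) or 2 (0.0522) for resident against monocyte-derived, and without converted library 1 (0.0612), converted library 3 (0.0667) or resident library 3 (0.0657) for converted against resident libraries. The higher count of 1 was 2 without monocyte-derived library 1 or 2, and the lower count of 1 was 2 without monocyte-derived library 1 or 3. Neither ligand gene was called between converted and resident libraries, with adjusted p = 0.572 for Nectin2 and 0.762 for Pvr. The inhibitory rival receptor gene Tigit was 2.45 ± 0.73, 3.01 ± 0.24 and 1.94 ± 1.12 CPM and was not called; it was named after its values were seen.

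Among 7 tested secreted RNases other than Ear2, 4 were lower and 2 higher in both comparisons with monocyte-derived libraries, each of which called 50.7% of all genes. Rnase2a, listed with the eosinophil-associated RNases though without an Ear symbol, was abundant in all groups. It fell to 710 ± 118 CPM in converted and 677 ± 44.8 CPM in resident libraries, against 1853 ± 274 CPM in monocyte-derived libraries (SD, n = 3 each; log2 -1.38 ± 0.14 and -1.45 ± 0.14 SE; edgeR adjusted p = 3.59e-05 and 2.65e-05). Rnase2b had 1 read in converted, 3 in resident and 163 in monocyte-derived libraries. Rnase6 was 35.9 ± 3.81 and 48.2 ± 2.70 CPM, against 166 ± 54.0 CPM (log2 -2.21 ± 0.21 and -1.78 ± 0.21; edgeR adjusted p = 2.48e-05 and 8.72e-05). Rnaset2b, a lysosomal RNase, rose to 28.8 ± 1.37 and 35.9 ± 3.40 CPM, against 11.6 ± 2.00 CPM (log2 1.31 ± 0.14 and 1.63 ± 0.14; edgeR adjusted p = 3.62e-05 and 8.48e-06); it has a near copy, Rnaset2a, so its counts are uncertain. None of these 4 was called between converted and resident libraries. Rnaset2a was the 1 RNase called lower there (log2 -0.50 ± 0.11, edgeR adjusted p = 0.0326), a call lost without any 1 of the converted libraries or without resident library 1 or 3 (adjusted p = 0.0881 to 0.162).

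The leukotriene B4 list set the relatives of Cyp4f18 beside the pathway it acts in. Of 6 tested genes of synthesis and reception, 4 were higher and 1 lower in converted, and 4 higher and 2 lower in resident than in monocyte-derived libraries. Each of these comparisons called 50.7% of all genes. Alox5, the lipoxygenase that starts the pathway, rose to 564 ± 90.3 CPM in converted and 587 ± 5.70 CPM in resident libraries, against 21.2 ± 9.12 CPM in monocyte-derived libraries (SD, n = 3 each; log2 4.73 ± 0.31 and 4.79 ± 0.31 SE; edgeR adjusted p = 2.23e-06 and 2.43e-06). Ltb4r1, the receptor for leukotriene B4, fell to 7.30 ± 0.89 and 9.71 ± 1.12 CPM, against 343 ± 197 CPM (log2 -5.55 ± 0.39 and -5.14 ± 0.38; edgeR adjusted p = 3.72e-06 and 5.48e-06). Ltc4s, which diverts the pathway to cysteinyl leukotrienes, rose to 86.0 ± 8.54 and 93.0 ± 6.71 CPM, against 16.8 ± 5.20 CPM (log2 2.36 ± 0.19 and 2.47 ± 0.19; edgeR adjusted p = 7.67e-06 and 5.88e-06). The lower count of 1 was 2 without monocyte-derived library 1, and 1 gene was called higher in converted than in resident libraries without that library.

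Other members of the Cyp4f family were closer to level: Cyp4f13 was 17.7 ± 2.13, 17.2 ± 1.14 and 23.7 ± 0.59 CPM and Cyp4f16 24.8 ± 2.86, 25.7 ± 4.57 and 45.9 ± 20.1 CPM in converted, resident and monocyte-derived libraries (SD, n = 3 each). Both were called lower in the 2 comparisons with monocyte-derived libraries, with edgeR adjusted p of 0.0133 and 0.00803 for Cyp4f13 and 0.0212 and 0.0277 for Cyp4f16. Neither call held in converted libraries without converted library 2 (adjusted p = 0.0535 and 0.0742), and that of Cyp4f16 was also lost without converted library 3 (0.0537). In resident libraries the call of Cyp4f16 was lost without monocyte-derived library 1 (0.0577), resident library 1 (0.0945) or resident library 3 (0.0882). Only 0.424% of the 50-base windows of Cyp4f18 occur in another gene, Cyp4f17. The relatives of Napsa in the pepsin family gave no call among 3 tested: Ctsd was 2808 ± 212, 3125 ± 348 and 4201 ± 2205 CPM (log2 -0.58 ± 0.33 and -0.43 ± 0.33 SE against monocyte-derived libraries; edgeR adjusted p = 0.17 and 0.307), and without monocyte-derived library 1 the list gave 1 call in each direction in both of those comparisons and 1 lower in converted than in resident libraries. Without monocyte-derived library 2 it gave 1 lower in converted than in either other group.

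The 49 genes within 50 kb of the 9 genes held 23 that were tested. Of these, 5 were higher and 9 lower in converted, and 3 higher and 6 lower in resident than in monocyte-derived libraries, with medians of -0.26 and -0.11 on the log2 scale. Among all genes, 25.8% were called higher and 24.9% lower in the first comparison, and 25.7% and 24.9% in the second. Between converted and resident libraries 6.07% of all genes were called. Nothing about the positions is read from these counts. Next to Matk, Apba3 was 24.7 and 25.8 CPM on average in converted and resident libraries, against 52.5 CPM in monocyte-derived libraries (log2 -1.08 ± 0.11 and -1.02 ± 0.11 SE; edgeR adjusted p = 2.36e-05 and 3.44e-05). Sh3bgrl3, on the strand of Cd52, was 310.0 and 338.9 CPM, against 596 CPM (log2 -0.94 ± 0.09 and -0.81 ± 0.09; edgeR adjusted p = 1.63e-05 and 4.31e-05). Beyond Zbtb46, Rtel1, a DNA helicase gene, went the other way (log2 1.47 ± 0.20 and 1.20 ± 0.20; edgeR adjusted p = 0.000174 and 0.000607). The 1 neighbour lower in converted than in resident libraries was Spib near Napsa, an ETS factor of B cells and plasmacytoid dendritic cells, at 2.60, 25.3 and 1.74 CPM in converted, resident and monocyte-derived libraries (log2 -3.28 ± 0.54, edgeR adjusted p = 0.00883). These neighbours were named after their values were seen.

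For each of the other 8 genes, the profile closest over the 9 libraries among those 9292 was found in the same way as Siglecg for Plac8, with no test. It was Emb for Ear2 (root mean square difference 0.56; 1.18, 5.81 and 189.5 CPM on average in converted, resident and monocyte-derived libraries), Rubcnl for Napsa (0.36), Nab2 for Cd52 (0.18), Arap2 for Cd226 (0.61) and Gpr132 for Cyp4f18 (0.21; 1.48, 4.79 and 16.7 CPM). It was Dok2 for Batf3 (0.17; 107, 92.0 and 761 CPM), Vhl for Zbtb46 (0.16) and Errfi1 for Matk (0.21; 6.45, 7.51 and 102 CPM). These genes were chosen by likeness over the same 9 libraries. That they share the pattern of their match across the groups follows from the choice and is no result. Ear2 and Cd226 had the least close matches.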

How the data were processed

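Each library has 1 deposited table of read counts by gene, not normalised. TopHat2 2.1.0, HTSeq and the GRCm38 build stand in the submitters' processing notes, and annotation, strand and the handling of multiply aligned reads were not stated. Symbols and positions came from GENCODE M21 (47310 of 47729 identifiers matched), start regions from RefSeq on GRCm38.p6. Lines that name no gene were left out (no feature 4.02% to 5.66%, ambiguous 4.47% to 4.68% of reads). Libraries were grouped by title. No replicate pair looked like 1 library deposited again (chi-square per degree of freedom 5.99 or more).

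Counts of all 9 libraries were fitted together in edgeR 4.0.16 (R 4.3.3, limma 3.58.1) after filterByExpr (minimum count 10, minimum total 15; all 9 genes passed) and TMM scaling, with the robust quasi-likelihood F-test and Benjamini-Hochberg adjustment over 13223 genes; calls are genes with adjusted p below 0.05. The fit was tested on simulated data. The 9 genes and the lists were chosen with earlier results of these data known. The text names all 9 genes and otherwise draws on up to 3 called genes per list, direction and comparison with the largest change, from 5 CPM upward in the higher group (the 2 most abundant where none was called), relatives in the Ear, Cyp4f and BATF lists, of which not all are named, and the closest profile (protein-coding, mean of at least 5 CPM). Csk, Tigit and the neighbours were chosen after their values were seen. Xcr1 and Clec9a also stand outside that rule. As alternatives DESeq2 1.42.0, limma-voom, 3 further scalings, 2 further filters, a replicate block, fits of 2 groups and each library left out were run. The ATAC-seq of the design was not analysed here. The values of 1 listed gene are not reported here.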

Additional observations from a re-analysis of the deposited data

How the results depend on the processing

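Of the differences of the 9 genes under alternatives, 533 moved by less than the replicate spread, and 7 by more. Signs turned under some alternatives where the difference was near 0, for Plac8 in converted against monocyte-derived and Batf3 in converted against resident libraries, and for no other difference. Besides the values for Plac8 and Cd226 without converted library 2, these were Cd52 with no scaling beyond library size (-3.20, converted against monocyte-derived) and Cd226 as a difference of mean log2 CPM with a prior count of 2, chosen after seeing the data (-5.13 against monocyte-derived and -2.99 against resident libraries). Genes called between converted and resident libraries numbered 803, and 1364 with DESeq2, 530 with the replicate block, 2067 in a fit of the 2 groups, and 245 (without resident library 3) to 1628 (without monocyte-derived library 1) with single libraries left out; the cause was not tested. In the other comparisons 5886 to 6845 and 5680 to 6875 genes were called with single libraries left out, against 6703 and 6698. Companions called stayed within 1.5 times under every alternative run. Of the companion changes under alternatives, 5571 stayed on their side of the threshold, 198 lost and 48 gained a call and none reversed, among them Fcrls between converted and resident libraries with limma-voom (adjusted p = 0.0835).

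The titles' replicate numbers did not pair the libraries: deviations of same-numbered libraries correlated at -0.094 to 0.065, and 2 of 9 libraries matched their own number best. With the replicate block 6276 genes were called for converted and 6339 for resident against monocyte-derived libraries, and 81, 82 and 25 companions in the 3 comparisons. The block ended the call of Fos in converted against monocyte-derived (log2 0.75, adjusted p = 0.0545) and of Rnaset2a in converted against resident libraries (adjusted p = 0.0736).

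Depth limits Cd226 in converted cells most, at 5 reads in all. With 3 libraries a group, small differences such as those of Zbtb46 rest on few reads, 164 in converted libraries.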
